A study of Mus musculus with 16 samples.

Results

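Adipokines are the hormones and other proteins that fat cells release into the blood, and the genes described here are 8 of them or of the genes whose level is linked to fat mass: Lep, Adipoq, Retn, Cfd, Rbp4, Nampt, Sncg and Nnat. The 8 were chosen by name and role with earlier results of these same arrays known, so their differences between housings and ages are given as a description and support nothing further. A probe set with a single gene symbol was found for 7 of the 8, of 18194 genes measured in all. Cfd, which encodes the complement protease adipsin, has no probe set paired with it in the gene table used and was not analysed here.

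RNA came from the thoracic mammary gland of female FVB/N mice, homozygous for a transgene in which SV40 large T antigen, a viral oncoprotein, is under the C3(1) promoter fragment of a rat gene, that of prostatic steroid binding protein. All groups carry that transgene, and no gland without it is part of the comparison. The 4 groups, with 4 arrays each, were isolated mice at 20 weeks, grouped mice at 20 weeks, isolated mice at 15 weeks and grouped mice at 15 weeks, where isolated means single-housed after weaning and grouped means housed with other females. All were killed 6 hours into the dark phase and in estrus. The labels number the arrays but do not say that each is a separate mouse, so every p-value measures the spread between these arrays.

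The mammary gland is embedded in a fat pad, and in a virgin female most of its volume is white fat. Adipocytes there make leptin in proportion to their fat stores, and adiponectin, which is secreted in large amounts and usually falls as fat mass rises. Both hormones act at a distance, on appetite, liver and muscle, and they also reach the epithelium lying in the same fat pad. Since whole tissue was measured, fewer fat cells and less RNA per fat cell cannot be told apart.

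Promoters are shown for the 4 genes whose isolated and grouped arrays did not overlap at an age, Nnat, Sncg, Adipoq and Retn, so that the sequence in front of these genes can be read beside their levels. Each run is the 250 bases before the start of the gene, 5′ to 3′ on the gene's own strand, from RefSeq with build GRCm38.p6, at chr2:157559828-157560077 (plus strand) for Nnat, chr14:34374670-34374919 (minus strand) for Sncg, chr16:23146286-23146535 (plus strand) for Adipoq and chr8:3655520-3655769 (plus strand) for Retn. Capitals mark a match, on either strand, to 1 of 5 motifs searched: the CCAAT box, the C/EBP palindrome TTGCGCAA, the TATA element TATAA, the nuclear receptor element AGGTCA and the GC box GGGCGG.
Nnat: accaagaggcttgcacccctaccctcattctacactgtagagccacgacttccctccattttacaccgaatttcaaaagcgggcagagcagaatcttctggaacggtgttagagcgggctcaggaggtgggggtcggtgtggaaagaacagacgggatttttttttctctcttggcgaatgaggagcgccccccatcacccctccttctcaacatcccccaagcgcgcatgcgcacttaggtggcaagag
Sncg: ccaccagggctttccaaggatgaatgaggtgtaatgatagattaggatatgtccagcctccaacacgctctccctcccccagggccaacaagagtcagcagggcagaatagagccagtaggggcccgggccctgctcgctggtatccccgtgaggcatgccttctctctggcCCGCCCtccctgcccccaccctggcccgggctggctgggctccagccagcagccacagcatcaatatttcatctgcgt
Adipoq: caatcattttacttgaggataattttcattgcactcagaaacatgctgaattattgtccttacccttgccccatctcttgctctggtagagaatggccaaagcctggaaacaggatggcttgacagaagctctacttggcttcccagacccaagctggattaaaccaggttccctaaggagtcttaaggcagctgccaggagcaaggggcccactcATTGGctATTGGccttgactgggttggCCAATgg
Retn: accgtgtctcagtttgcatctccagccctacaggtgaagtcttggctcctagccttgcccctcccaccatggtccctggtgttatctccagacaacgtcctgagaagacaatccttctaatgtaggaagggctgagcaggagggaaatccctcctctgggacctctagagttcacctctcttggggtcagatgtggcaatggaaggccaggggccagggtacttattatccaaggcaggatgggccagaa

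Adipoq held 3 CCAAT boxes within 34 bases of its start, of which 2 read ATTGG on this strand. Sncg held 1 GC box, read here as CCGCCC, 78 bases before its start. Nnat and Retn held none of the 5 motifs, which says only that these letters are not in these 250 bases. Over 32851 mouse promoters of the same length, 33.8% held a CCAAT box, 32.7% a GC box, 22.8% a TATA element, 14% an AGGTCA element and 0.164% the C/EBP palindrome.

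Lep is shown by a stretch of 50 bases, since it was the only measured member to hold that rare palindrome, which is the binding sequence of the C/EBP factors of fat cell differentiation. The stretch lies at chr6:29060151-29060200 on the plus strand, and its capitals mark the palindrome, 55 bases before the start, and the overlapping matches to TATAA on the 2 strands near base 31.
Lep: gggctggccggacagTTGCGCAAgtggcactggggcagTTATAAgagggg

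The levels below are deposited log2 values, on which a difference of 1 is a doubling, and each probe set has its own scale, so levels are compared between arrays and not between genes. Their lower quartile over all probe sets was between 6.76 and 7.04 on every array, and no member fell below it. Array medians lay between 8.31 and 8.34 at 20 weeks, against 8.09 to 8.11 at 15 weeks. The mean of 9 luminal epithelial markers was between 11.07 and 11.88 on every array, and that of 8 skeletal muscle markers between 12.46 and 13.91, so epithelium and muscle were both in the tissue. The plot of levels by array shows every value of the 7 genes.

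**Figure D1:**
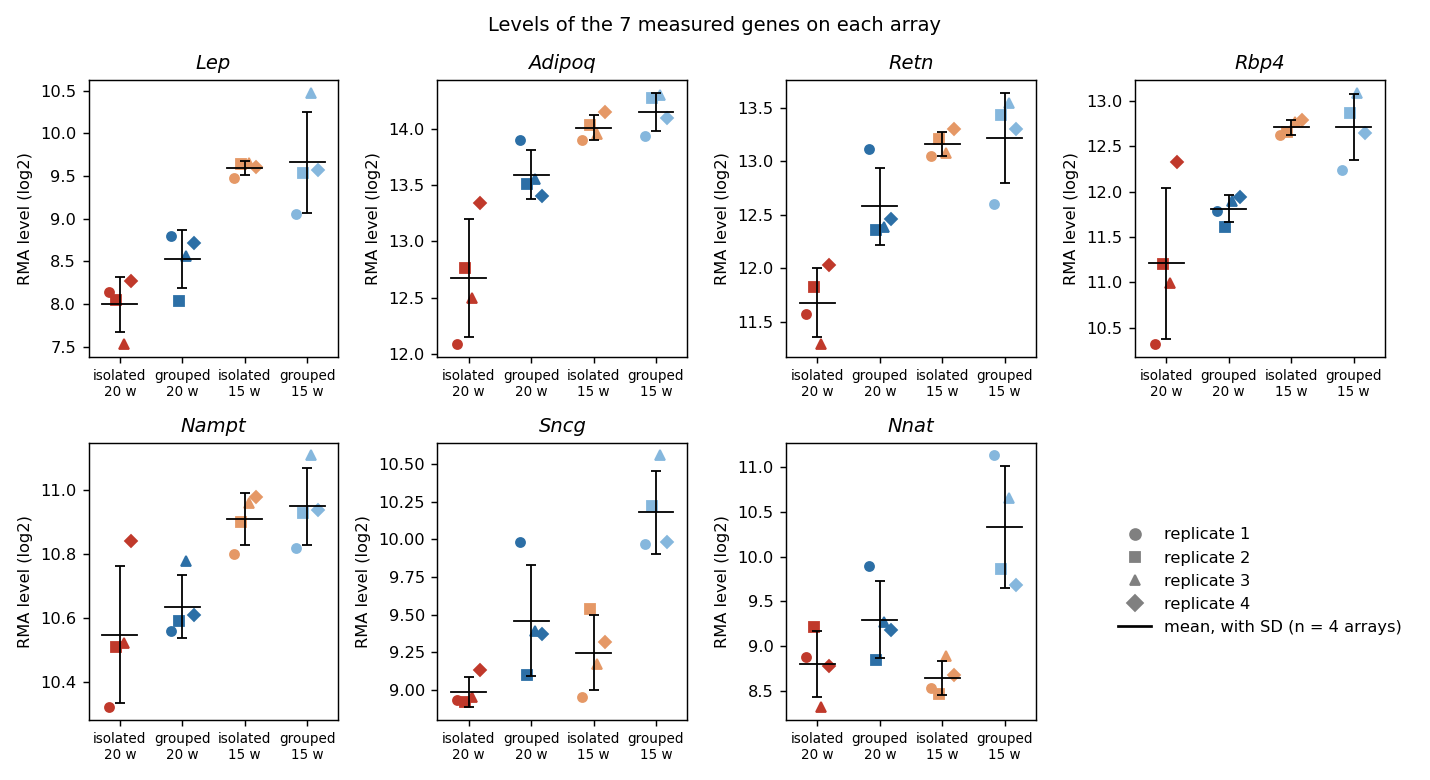
Level (log2) of each measured gene on every array, with isolated beside grouped arrays at 20 weeks and then at 15 weeks; points are arrays, and the line and whiskers are their mean and SD (n = 4). Adipoq and Retn separate by housing at 20 weeks, and Sncg and Nnat at 15 weeks.

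Leptin, encoded by Lep (chr6:29060221-29073876), signals fat stores to the brain. Its level at 20 weeks was 8.14, 8.05, 7.53 and 8.27 in isolated mice, against 8.80, 8.04, 8.56 and 8.72 in grouped mice. The groups overlapped through 1 grouped array, at 8.04, and isolated minus grouped was -0.53 ± 0.19 (SE; 95% interval -0.97 to -0.10). At 15 weeks it was 9.48, 9.64, 9.65 and 9.61 in isolated mice, against 9.06, 9.54, 10.48 and 9.57 in grouped mice, and the isolated arrays lay inside the span of the grouped ones. The difference there was -0.07 ± 0.23 (SE; 95% interval -0.58 to 0.44), and without the grouped array at 10.48 it turned to 0.20.

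Adipoq (chr16:23146536-23157968) encodes adiponectin, which raises insulin sensitivity and fatty acid burning in liver and muscle. At 20 weeks its level was 12.09, 12.76, 12.50 and 13.34 in isolated mice, against 13.90, 13.51, 13.55 and 13.40 in grouped mice. All 4 isolated arrays lay below all 4 grouped ones, although the isolated array at 13.34 came within 0.06 of them. The difference was -0.92 ± 0.24 (SE; 95% interval -1.45 to -0.39), or 1.89-fold lower, with an adjusted p of 0.455 in limma over all genes. Without the isolated array at 13.34 it was -1.14, with an adjusted p of 0.0319. At 15 weeks the levels of 13.90, 14.03, 13.95 and 14.15 in isolated mice overlapped those of 13.93, 14.27, 14.30 and 14.09 in grouped mice, and the difference was -0.14 ± 0.10 (SE).

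Retn (chr8:3655770-3659818) encodes resistin, a hormone made in mice by adipocytes that raises glucose output by the liver. Its 20-week level was 11.57, 11.82, 11.29 and 12.03 in isolated mice, against 13.11, 12.36, 12.38 and 12.46 in grouped mice. Again all isolated arrays were below all grouped ones, and 1 grouped array, at 13.11, stood above the other 3. The difference was -0.90 ± 0.20 (SE; 95% interval -1.35 to -0.45), 1.87-fold lower, with an adjusted p of 0.429 in limma. At 15 weeks the levels of 13.05, 13.21, 13.08 and 13.30 in isolated mice lay within those of 12.60, 13.43, 13.54 and 13.30 in grouped mice. That difference was -0.06 ± 0.18 (SE).

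Rbp4 (chr19:38116620-38125321) encodes the retinol carrier of plasma, which fat also secretes. At 20 weeks its level was 10.32, 11.20, 10.99 and 12.32 in isolated mice, against 11.79, 11.61, 11.90 and 11.94 in grouped mice. The isolated arrays spread over 2 log2 units, and the highest of them exceeded every grouped array. The difference of -0.60 ± 0.35 (SE; 95% interval -1.38 to 0.18) depended on single arrays, being -0.98 without the isolated array at 12.32 and -0.31 without the one at 10.32. At 15 weeks the mean was 12.71 ± 0.08 in isolated mice and 12.71 ± 0.36 in grouped mice (SD, n = 4 each), and the arrays overlapped.

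Nampt (chr12:32820335-32853369) encodes the enzyme that makes the NAD precursor nicotinamide mononucleotide, found outside cells as visfatin. Its isolated and grouped arrays overlapped at both ages. At 20 weeks its mean was 10.55 ± 0.22 in isolated mice and 10.63 ± 0.10 in grouped mice, and at 15 weeks 10.91 ± 0.08 in isolated mice and 10.95 ± 0.12 in grouped mice (SD, n = 4 each). Its differences were -0.08 ± 0.11 (SE) at 20 weeks and -0.04 ± 0.08 (SE) at 15 weeks. The other 2 probe sets of the gene gave 0.01 and -0.11 at 20 weeks and -0.08 and 0.09 at 15 weeks.

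Sncg (chr14:34370274-34374669) encodes gamma-synuclein, found in sensory neurons and in white adipocytes, where its level follows fat mass. At 15 weeks it was 8.95, 9.54, 9.17 and 9.32 in isolated mice, against 9.97, 10.22, 10.56 and 9.98 in grouped mice. The highest isolated array was 0.43 below the lowest grouped one. The difference was -0.94 ± 0.15 (SE; 95% interval -1.27 to -0.61), 1.92-fold lower, with an adjusted p of 0.0787 in limma, and Sncg ranked 16 of 18194 genes by p. At 20 weeks the levels were 8.93, 8.92, 8.95 and 9.13 in isolated mice, against 9.98, 9.10, 9.39 and 9.37 in grouped mice. The groups overlapped there by 1 array of each, and the difference of -0.48 ± 0.16 (SE) was -0.30 without the grouped array at 9.98.

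Nnat (chr2:157560078-157562525) encodes neuronatin, a small membrane protein of the endoplasmic reticulum, imprinted and expressed from the paternal copy, present in brain and in fat. At 15 weeks it was 8.53, 8.46, 8.89 and 8.68 in isolated mice, against 11.13, 9.86, 10.66 and 9.68 in grouped mice. The isolated arrays lay within 0.43 of each other, the grouped ones spanned over 3 times as much, and the sets were 0.79 apart. The difference was -1.70 ± 0.27 (SE; 95% interval -2.30 to -1.09), 3.24-fold lower, with an adjusted p of 0.0794 in limma and rank 18 of 18194 by p. At 20 weeks the levels of 8.88, 9.21, 8.32 and 8.78 in isolated mice overlapped those of 9.89, 8.85, 9.27 and 9.18 in grouped mice. That difference was -0.50 ± 0.23 (SE), and -0.30 without the grouped array at 9.89.

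**Figure D2:**
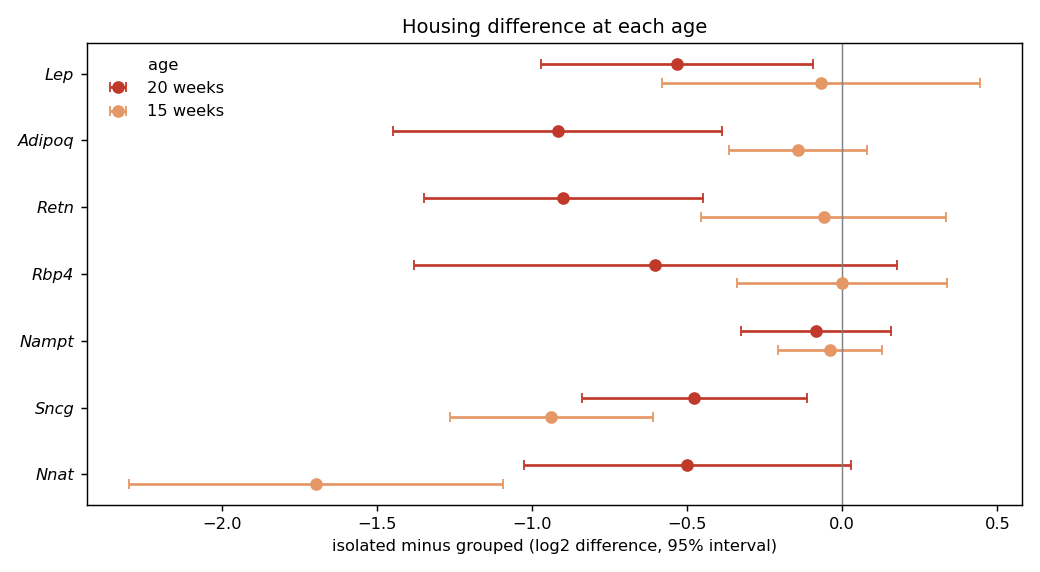
Isolated minus grouped level (log2 difference) of each measured gene at 20 weeks and at 15 weeks, with points for the fitted difference and lines for its 95% interval. Adipoq and Retn lie near -0.9 at 20 weeks and near 0 at 15 weeks, and Nnat reaches -1.70 at 15 weeks.

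Of the 7 measured members, 0 passed an adjusted p of 0.05 for housing at 20 weeks, where 0.0110% of all genes passed in limma, and 0 passed at 15 weeks, where 0.0440% did. At an unadjusted p under 0.05, 1545 of all genes passed at 20 weeks and 1764 at 15 weeks. Isolated arrays all lay below grouped ones for 2 of 7 members at 20 weeks (Adipoq and Retn) and for 2.0% of all genes, and for 2 of 7 at 15 weeks (Sncg and Nnat) and 3.38% of all genes. The median difference of the 7 was -0.53 at 20 weeks and -0.07 at 15 weeks, beside -0.01 over all genes at each age. All 7 were negative at each age, beside 53.3% of all genes at 20 weeks and 54% at 15 weeks. At 15 weeks Lep, Adipoq, Retn, Rbp4 and Nampt were only between -0.14 and -0.001, and each turned sign under 1 or more alternatives.

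The difference between the 2 housing differences, 20 weeks minus 15 weeks, was tested as an interaction over the 16 arrays. It was -0.77 ± 0.27 for Adipoq (adjusted p = 0.271), -0.84 ± 0.29 for Retn (adjusted p = 0.265), 0.46 ± 0.24 for Sncg (adjusted p = 0.428) and 1.20 ± 0.40 for Nnat (adjusted p = 0.255), each with its SE from limma. Of the 7 members 0 passed, beside 0.0110% of all genes, with 2313 genes at an unadjusted p under 0.05. The pattern of 2 genes apart at one age and 2 others at the other age was therefore not shown to differ between ages.

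White adipocyte markers, like the hormones, were lower in isolated mice at 20 weeks, with 0 of 13 past the threshold in limma. The mean level of 13 such markers, such as Fabp4, Plin4 and Pparg, was 10.29, 10.86, 10.86 and 11.66 in isolated mice, against 11.56, 11.45, 11.56 and 11.42 in grouped mice. The isolated array highest in Adipoq, Retn and Rbp4 was also the highest in these markers. That array, replicate 4, was also the highest of its group in the mean of 9 brown adipocyte markers (10.73). Replicate 1 was the lowest of the group in both lists, at 10.29 and 8.27. The marker mean is therefore not read as a measure of white fat alone. All 13 markers had a negative difference at 20 weeks (median -0.65), and 8 of 13 at 15 weeks (median -0.06). At 15 weeks the marker mean ran between 11.87 and 12.08 in isolated mice, and between 11.89 and 12.34 in grouped mice.

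Taken relative to the mean of these markers on the same array, a comparison added after the data were seen, the 20-week differences were 0.04 for Lep, -0.03 for Rbp4, -0.32 for Retn and -0.34 for Adipoq. Adipoq was 1.80, 1.90, 1.64 and 1.69 above the marker mean in isolated mice, against 2.35, 2.06, 2.0 and 1.99 in grouped mice. These did not overlap, with an adjusted p of 0.235 in limma. At 15 weeks the difference on this scale was -0.88 for Sncg and -1.64 for Nnat, and neither gene overlapped. The share of all genes without overlap on this scale is not given here, so nothing is read from these gaps. Nnat minus the marker mean was -3.34, -3.57, -3.17 and -3.40 in isolated mice, against -0.763, -2.19, -1.68 and -2.30 in grouped mice. The markers themselves differed little by housing at 15 weeks (median -0.06). Taking their mean off could therefore change these 15-week differences only slightly, and nothing is read from their size on this scale.

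**Figure D3:**
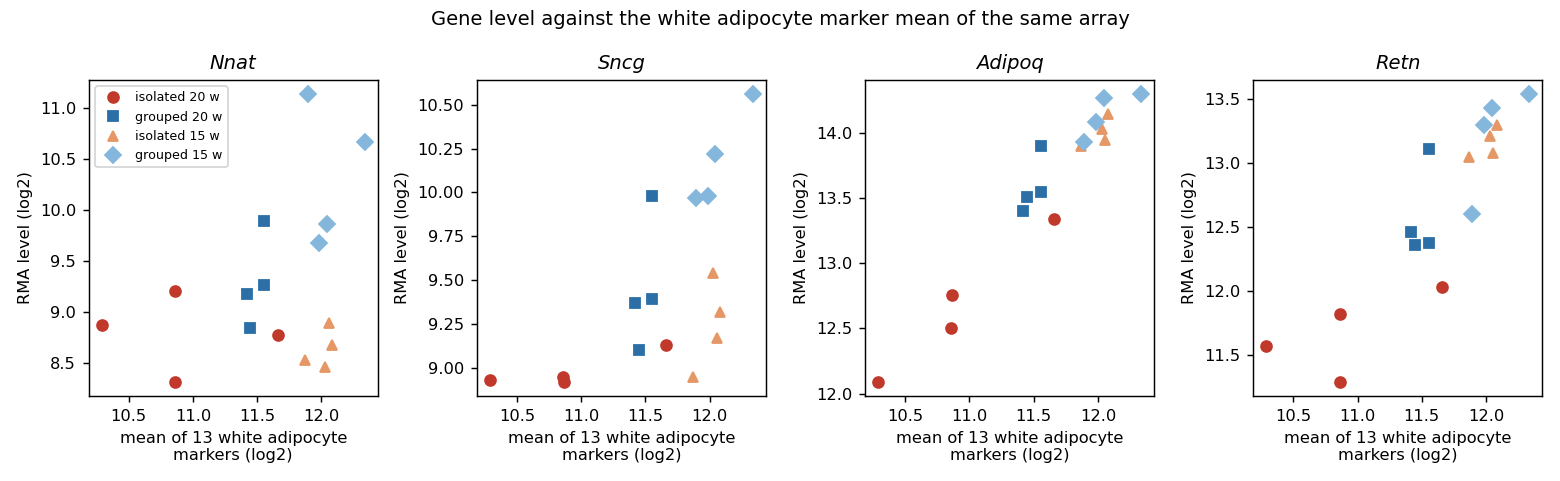
Level of a gene (log2, vertical axis) against the mean of 13 white adipocyte markers on the same array (log2, horizontal axis), a point per array and a colour per group. Adipoq and Retn run along with the marker mean, and the grouped arrays at 15 weeks stand above the isolated ones in Sncg and Nnat at like marker means.

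Markers of other cells had lower or higher means by housing as well, with 0 brown adipocyte, skeletal muscle, macrophage or T cell markers past the threshold at either age in limma. At 20 weeks the mean of 9 brown adipocyte markers ran between 8.27 and 10.73 in isolated mice, against 9.54 to 10.48 in grouped mice, and that of 8 skeletal muscle markers between 12.46 and 13.30, against 13.25 to 13.91. All 12 macrophage markers had a positive difference at 20 weeks (median 0.59), with means of 11.01 to 11.85 in isolated mice and 10.50 to 11.82 in grouped mice. At 15 weeks all 12 had a negative one (median -0.37), with means of 10.71 to 11.13 in isolated mice and 11.18 to 11.43 in grouped mice. Of 4 measured T cell markers, 3 were negative at 15 weeks, with means of 7.35 to 7.54 in isolated mice and of 8.81, 7.55, 7.57 and 7.72 in grouped mice. In isolated mice at 15 weeks, Cd2 (mean 6.40) and Cd3g (6.66) among them were below the lower quartile of the arrays. The grouped array at 8.81 is replicate 1, the one highest in Nnat, and without it the 15-week difference of Nnat was -1.43 (adjusted p = 0.0459 in limma). At 20 weeks all 4 were positive, with means of 7.44 to 8.41 in isolated mice and 7.42 to 7.58 in grouped mice. Also at 20 weeks, 6 of 6 endothelial (median -0.34), 9 of 9 luminal (median -0.11) and 4 of 6 basal epithelial markers (median -0.12) were negative. All 7 fibroblast and matrix markers were positive (median 0.32). At 15 weeks 2 of 6 endothelial, 2 of 9 luminal, 1 of 6 basal and 7 of 7 fibroblast and matrix markers were negative. In these lists 0 passed the threshold at either age in limma. The part of these cells in the members' differences was not tested.

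For the neuronal genes at 15 weeks, 8 Schwann cell and nerve markers had a median difference of 0.05 and means of 7.78 to 7.82 in isolated mice, against 7.69 to 7.80 in grouped mice. Some of these markers lay below the lower quartile of the arrays, which limits what their mean can show. Nefm averaged 4.81 in isolated and 4.91 in grouped mice, Nefl 6.06 and 5.99, and Uchl1 6.06 and 6.19. Of the 8, 2 were negative and 6 positive, with 0 past the threshold in limma, and their part in the differences of Sncg and Nnat was not tested. RNA quality differed a little by the Gapdh control. Its 3′ minus 5′ signal was -0.0134 ± 0.021 in isolated and -0.0632 ± 0.0248 in grouped arrays at 15 weeks (SD, n = 4 each, log2). The lowest isolated array, -0.034, only just met the highest grouped array, -0.0339. By the actin control the housings overlapped at that age, with means of 0.282 (isolated) and 0.256 (grouped). With the Gapdh measure as a covariate, added after the data were seen, the 15-week difference was -2.63 for Nnat (adjusted p = 0.0205 in limma) and -0.83 for Sncg (adjusted p = 1). Since that measure nearly separates the housings, this fit can hardly tell the 2 apart, and nothing is read from it. The fit with the actin measure is not given here.

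By age, Lep, Adipoq, Retn, Rbp4 and Nampt were lower at 20 than at 15 weeks in both housings, while the median of all genes was higher by 0.24 in isolated and 0.23 in grouped mice. Lep differed most. In isolated mice its mean was 8.0 ± 0.32 at 20 weeks and 9.59 ± 0.08 at 15 weeks (SD, n = 4 each), a difference of -1.60 ± 0.14 (SE, adjusted p = 1.99e-05 in limma), or -1.83 net of the median of all genes. In grouped mice it was 8.53 ± 0.34 at 20 weeks and 9.66 ± 0.59 at 15 weeks, a difference of -1.13 ± 0.27 (SE, adjusted p = 0.00537), or -1.36 net. All arrays of an age may have been processed together, which no label records, so age and array run cannot be told apart.

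In isolated mice the age difference was -1.33 for Adipoq, -1.48 for Retn, -1.50 for Rbp4 and -0.36 for Nampt, all past the threshold in limma. Net of the median of all genes these were -1.57, -1.72, -1.74 and -0.60. In grouped mice the difference was -0.56 for Adipoq, -0.64 for Retn, -0.90 for Rbp4 and -0.32 for Nampt, and these 4 also passed. Net of the median they were -0.79, -0.87, -1.13 and -0.55. The values for Nampt are those of the probe set used. Its other 2 probe sets gave age differences of -0.14 and -0.24 in isolated mice, and of -0.22 and -0.03 in grouped mice. The call for Retn in grouped mice was lost without any 1 of 6 arrays, replicates 2, 3 and 4 of either age (adjusted p between 0.0665 and 0.0824).

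Sncg and Nnat had another pattern. In grouped mice Sncg differed by -0.72 ± 0.19 and Nnat by -1.03 ± 0.32 (SE; adjusted p = 0.00773 and 0.018 in limma), and the call for Nnat was lost without grouped replicate 2 at 20 weeks, where its adjusted p was 0.0533. In isolated mice Sncg differed by -0.26 ± 0.11 and Nnat by 0.16 ± 0.17 (SE; adjusted p = 0.0639 and 0.417). Net of the median of all genes, Sncg was at -0.95 and Nnat at -1.26 in grouped mice, and Sncg at -0.50 and Nnat at -0.07 in isolated mice, so the sign of Nnat in isolated mice turned. The interaction given above is also the test of this contrast between housings, and neither gene passed it on the deposited levels. Relative to the adipocyte marker mean, a scale added after the data were seen, the interaction was 1.72 for Nnat (adjusted p = 0.000105 in limma) and 0.98 for Sncg (adjusted p = 0.115). All 13 markers had a negative interaction themselves (median -0.48), so taking their mean off raises the interaction of every gene. The share of all genes passing on that scale is not given here, and nothing is read from the call for Nnat. In all, 5 of 7 members were called lower at 20 weeks in isolated mice, where 9.33% of all genes were, and 7 of 7 in grouped mice, where 6.40% were; since members were chosen with these results known, nothing is read from those shares.

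**Figure D4:**
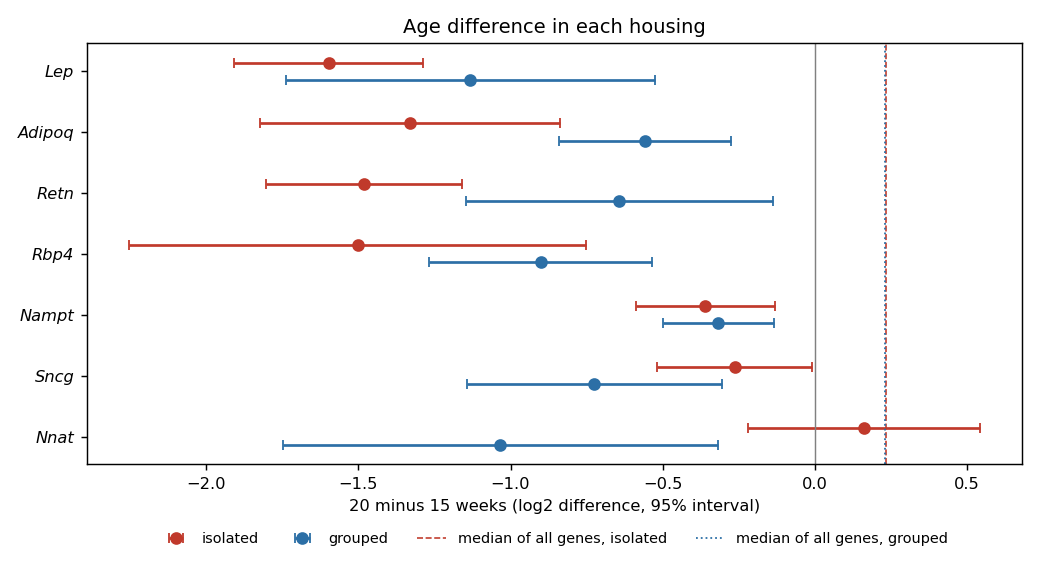
Level at 20 weeks minus level at 15 weeks (log2 difference) for each measured gene in isolated and in grouped mice, with 95% intervals and vertical lines at the median of all genes. Every gene but Nnat in isolated mice lies below 0.

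Fat cell markers were lower at 20 weeks as well, where age and array run cannot be told apart. Of the 13 white adipocyte markers, 12 were called lower in isolated mice (median -1.32), where 9.33% of all genes were. In grouped mice 10 were called lower (median -0.58), where 6.40% of all genes were. Relative to the marker mean, the age difference in isolated mice was -0.51 for Lep, -0.24 for Adipoq, -0.39 for Retn, -0.41 for Rbp4, and these 4 lost their calls (adjusted p between 0.111 and 0.337 in limma). Nampt at 0.73, Sncg at 0.83 and Nnat at 1.25 were higher on that scale and passed, by subtraction of a marker mean that itself was lower at 20 weeks. In grouped mice the difference was -0.56 for Lep and -0.33 for Rbp4, which kept their calls (adjusted p = 0.00595 and 0.0472 in limma). It was 0.01 for Adipoq, -0.07 for Retn, 0.25 for Nampt, -0.15 for Sncg and -0.46 for Nnat, which lost theirs (adjusted p between 0.0766 and 0.927). The shares of all genes called on that scale are not given here, so nothing is read from calls kept or lost. Of the 9 luminal epithelial markers, 7 were called higher at 20 weeks in each housing, where 57.3% of all genes were in isolated and 56.0% in grouped mice. Ordered by mean, Lep, Rbp4 and Nampt were highest in the 2 groups at 15 weeks, which overlapped, then in grouped and last in isolated mice at 20 weeks, which overlapped as well. Adipoq and Retn were lowest in isolated mice at 20 weeks, apart from grouped mice of that age. Sncg was highest in grouped mice at 15 weeks, then in grouped mice at 20 weeks, isolated mice at 15 weeks and isolated mice at 20 weeks, with overlap at each step. Nnat was ordered in the same way except that isolated mice at 15 weeks were lowest.

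The members were correlated with each other to differing degrees over the 16 arrays, with the mean of each age taken off. The highest Pearson r were those of Adipoq with Retn (0.876) and Rbp4 (0.853), of Rbp4 with Nampt (0.876), of Sncg with Nnat (0.803) and of Lep with Retn (0.802). Sncg had an r of 0.564 with Adipoq, 0.577 with Retn and 0.554 with Lep. The r of Nnat with members other than Sncg ran between 0.0803, with Rbp4, and 0.313, with Adipoq. These are descriptions, since the arrays share tissue make-up and housing. On the same measure the genes most like Adipoq were Ces1d (r = 0.981), a lipase of fat cells, Tmem45b (0.971) and Lpl (0.967), the lipoprotein lipase. Those most like Lep were Eci3 (0.906), Bche (0.885) and Pgrmc2 (0.866), and those most like Nampt were Hsdl2 (0.965), Iscu (0.963) and Retsat (0.959), the retinol saturase.

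The genes most like Sncg were Klhl2 (r = 0.897), Opn3 (0.896) and Glb1l2 (0.885). Klhl2 had a mean of 9.07 ± 0.18 in isolated and 9.87 ± 0.23 in grouped mice at 15 weeks (SD, n = 4 each). Those most like Nnat were Jchain (0.851), the joining chain of secreted antibodies, Igkv8-30 (0.787), an antibody light chain segment, and Crebrf (0.785). Jchain was between 9.01 and 9.22 in isolated mice at 15 weeks, against 9.77 to 10.72 in grouped mice, a difference of -1.01 ± 0.18 (SE, adjusted p = 0.1 in limma). It is a plasma cell gene whose 15-week levels separated the same groups as Nnat, and its part in that difference was not tested.

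Other adipokines were of mixed sign. Of 25 listed, 22 were measured, and at 20 weeks 6 were negative and 16 positive (median 0.10), at 15 weeks 12 negative and 10 positive (median -0.05), with 0 past the threshold at either age. C1qtnf3, a secreted protein related to adiponectin, averaged 9.50 ± 0.15 in isolated and 8.03 ± 0.61 in grouped mice at 20 weeks (SD, n = 4 each), with a difference of 1.47 ± 0.26 (SE, adjusted p = 0.28 in limma). The next by p at that age were Agt, the angiotensin precursor, at -0.34, Apln, the peptide apelin, at 0.36, and the chemokine Ccl2 at 0.51.

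Of 22 adipokine receptor and signalling genes, 21 were measured, 12 of them negative at 20 weeks (median -0.05) and 15 at 15 weeks (median -0.06), again with 0 past the threshold. The smallest p at 20 weeks were those of Aplnr, the apelin receptor (-0.47), Insr, the insulin receptor (-0.37), Prkaa2, an AMP kinase subunit (-0.42), and C3ar1, a complement receptor (0.34). Of 10 other genes linked to fat mass, 9 were measured, with 7 negative at 20 weeks and 4 at 15 weeks and 0 past the threshold. They were led at 20 weeks by Ccnd2, a cyclin (-0.35), Cav1, the caveolin of fat cell surface pits (-0.48), and the imprinted genes Peg3 (-0.39) and Mest (0.27). In a wider list of 15 measured adipocyte genes, which holds the 13 markers above, all 15 were negative at 20 weeks, led by Acvr1c (-0.19), Plin4, a lipid droplet coat protein (-0.68), Lpl (-0.80), which the list of other adipokines holds as well, and Ghr, the growth hormone receptor (-0.53), and 10 were negative at 15 weeks, with 0 past the threshold at either age.

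By age the counts lie beside shares of all genes called higher of 57.3% in isolated and 56.0% in grouped mice. Of the 22 other adipokines measured, 12 were called higher at 20 weeks and 4 lower in isolated mice, against 9 and 4 in grouped mice. Of the 21 receptor and signalling genes 12 were called higher and 4 lower in isolated mice, and 11 and 2 in grouped mice. Of the 9 genes of the fat mass linked list 3 were called higher, Mest among them, and 3 lower in each housing, the last being Ccnd2, Cav1 and Npr3, the clearance receptor of natriuretic peptides. Mest had a mean of 9.35 ± 0.24 at 20 weeks and 8.61 ± 0.04 at 15 weeks in isolated mice, and 9.08 ± 0.19 at 20 weeks and 8.61 ± 0.03 at 15 weeks in grouped mice (SD, n = 4 each).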

How the data were processed

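The 16 Affymetrix mouse arrays each gave 45101 probe set values. Per the submitters' processing notes the authors used RMA and affy (versions not given), so the deposited table is on the log2 scale. Filters before deposit, detection calls and the array run are not given in the sources used here. RMA sets arrays to a common distribution, and here each age had its own, so age differences are also given net of the median of all genes. Arrays have no read depth, and their number limits the precision.

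In the gene table of the platform 34958 probe sets had 1 symbol, 932 several and 9211 were not listed. For each of 18194 genes the single-symbol probe set with the highest mean entered limma 3.58.1 (R 4.3.3; lmFit, then eBayes with trend). P-values were adjusted over all genes by Benjamini and Hochberg's method, with 0.05 as the threshold. Each comparison of 2 groups used its own 8 arrays, and the interaction all 16. Folds are 2 to the power of the fitted difference.

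The members and lists were chosen with earlier results of these data known. Named genes were the members, the 3 genes with the highest correlation to each of Lep, Adipoq, Nampt, Sncg and Nnat, and the 4 with the smallest p for housing at 20 weeks from each list. Same-numbered arrays of compared groups correlated between -0.2 and 0.488, which does not settle whether the numbers pair the arrays. The labels give no pairing, and the main fits use none. On data simulated for 18194 genes, the 20-week fit recovered 63 of 67 genes changed by 1 log2 unit and 41 of 67 changed by 0.5, and the 15-week fit 65 of 67 and 52 of 67. The simulated noise was drawn for each gene on its own, so it lacks the variation that genes of real arrays share. These counts check the fit and do not give its power on the real arrays, where Adipoq at -0.92 was not called at 20 weeks. Alternatives were quantile normalization, a filter on genes under the 40th percentile of mean level, the most variable probe set, no trend in eBayes, a replicate block, all 16 arrays, leaving out each array, and, added after the data were seen, control 3′ minus 5′ covariates and levels relative to 13 white adipocyte markers. Promoters came from RefSeq with build GRCm38.p6, where 8 of 8 members matched.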

Additional observations from a re-analysis of the deposited data

Results flagged for a closer look

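Retn on grouped replicate 1 at 20 weeks had a level of 13.11, further above the other 3 arrays of its group than their spread would allow by Dixon's test at the 95% level. Sncg on isolated replicate 4 at 20 weeks had a level of 9.13 and lay above the other 3 of its group, which were within 0.03 of each other. Chance gives such a flag in about 1 of 20 groups, and 28 were examined. Without that grouped array the 20-week difference was -0.72 for Retn, and without that isolated array the age difference of Sncg in isolated mice was -0.31.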

How the results depend on the processing

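The cause of each change below was not tested. Genes past the threshold for housing at 20 weeks numbered 2, but 8 with all 16 arrays in the fit and 0 to 136 when 1 array was left out (136 without isolated replicate 4). At 15 weeks they numbered 8, but 2 with all 16 arrays and 0 to 31 when 1 array was left out (31 without grouped replicate 3). For age they numbered 12118 in isolated mice, or 7763 with the filter, and 11358 in grouped mice, or 6989 with quantile normalization and 6719 with the filter. For the interaction they numbered 2, or 1 with the filter, 1 with no trend, and 0 to 139 when 1 array was left out. Whether the replicate numbers pair the arrays is not known. With the replicate block, 17 genes passed at 15 weeks, among them Sncg (adjusted p = 0.0474 in limma) and Nnat (0.0483). In that setting 8 passed for the interaction, and Retn lost its age call in grouped mice (0.0686).

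The median of the members relative to the adipocyte markers was 0.042 for housing at 20 weeks, -0.24 and -0.15 for age in isolated and grouped mice, and 0.055 for the interaction. It was -0.97 for age in grouped mice with quantile normalization. Leaving out 1 array gave medians between -0.67 and -0.44 for housing at 20 weeks, -0.27 and 0.012 at 15 weeks, -1.55 and -1.14 for age in isolated mice, -0.89 and -0.60 in grouped mice, and -0.73 and -0.26 for the interaction.

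Signs turned for some small differences. Nothing is read from 15-week values with the Gapdh covariate, since that measure nearly separated the housings. For housing at 15 weeks, leaving out 1 array gave -0.27 to 0.20 for Lep, -0.27 to 0.047 for Retn, -0.16 to 0.13 for Rbp4 and -0.084 to 0.012 for Nampt. Quantile normalization gave 0.076 for Rbp4 and 0.025 for Nampt there, the Gapdh covariate 0.00068 for Adipoq, 0.33 for Retn and 0.16 for Rbp4, and the adipocyte scale 0.054 for Rbp4 and 0.015 for Nampt. On the adipocyte scale the 20-week differences were 0.042 for Lep, 0.49 for Nampt, 0.099 for Sncg and 0.076 for Nnat, the age differences 0.73 for Nampt and 0.83 for Sncg in isolated mice and 0.014 for Adipoq and 0.25 for Nampt in grouped mice, and the interactions 0.055 for Lep and 0.48 for Nampt. The age difference of Nnat in isolated mice was -0.048 with quantile normalization, and the interaction of Nampt ran between -0.14 and 0.032 when 1 array was left out.

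On the adipocyte scale the interaction of Nnat passed (1.72, adjusted p = 0.000105 in limma). This came by subtraction of a marker mean whose own interaction was negative, and nothing is read from it. For Nnat and Sncg the 15-week difference stayed negative under all 17 alternatives, with 4 and 3 of them past the threshold. Their isolated and grouped arrays did not overlap at that age, so leaving out an array could not turn the sign. The alternatives passed include the replicate block, whose numbers are not known to pair the arrays, and the adipocyte scale, added after the data were seen. For Nnat they also include the Gapdh covariate, from which nothing is read. With 4 arrays a group, housing differences could be missed. The intervals given above are for each gene alone and are not adjusted over all genes. A gene with a wholly negative interval, such as Adipoq at 20 weeks (-1.45 to -0.39), was therefore not always called.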

Other observations

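The genes here were chosen after their values were seen. Rarres2, which encodes the chemoattractant adipokine chemerin, was between 10.96 and 11.18 in isolated mice at 15 weeks, against 11.39 to 11.68 in grouped mice, a difference of -0.51 ± 0.08 (SE, adjusted p = 0.0794 in limma). At 20 weeks its difference was 0.29 ± 0.33 (SE, adjusted p = 0.798). Socs3, the feedback inhibitor of leptin receptor signalling, had a mean of 11.29 ± 0.26 at 20 weeks and 9.63 ± 0.09 at 15 weeks in isolated mice, and of 11.18 ± 0.24 at 20 weeks and 9.70 ± 0.35 at 15 weeks in grouped mice (SD, n = 4 each). It was called higher at 20 weeks by 1.66 in isolated and 1.47 in grouped mice, where 57.3% and 56.0% of all genes were called higher. The leptin receptor gene Lepr differed by -0.04 and 0.03. None of these values is net of the median of all genes, which was higher by 0.24 in isolated and 0.23 in grouped mice. C1qtnf3 differed by age by 2.85 ± 0.15 in isolated mice and 0.92 ± 0.63 in grouped mice (SE, adjusted p = 4.89e-06 and 0.226), with an interaction of 1.93 and an adjusted p of 0.294; its levels at 15 weeks reached below the lower quartile of the arrays.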
